A study of Homo sapiens with 24 samples.

Results

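The 7 genes described here encode the nuclear topoisomerases TOP1, TOP2A and TOP2B, the phosphodiesterases TDP1 and TDP2, bleomycin hydrolase (BLMH) and carbonyl reductase 1 (CBR1). They were chosen by name as topoisomerases, enzymes that clear trapped topoisomerases or damaged DNA ends, and enzymes that process doxorubicin or bleomycin. All 7 were found among the 14493 genes of the read-count table. The mRNA was measured in 24 libraries of SKBR3, an established human cell line from a HER2-positive breast cancer. The libraries form 8 groups, each with 3. Of these groups, 2 were untreated cells collected on day 0, the proliferative control, and on day 7, and the other 6 were cells given 1 drug each, refreshed on day 3, and harvested on day 7. The genotoxic stressor doxorubicin was given at 10 nmol/L, bleomycin, which breaks DNA through oxidation, at 10 μmol/L, the Aurora A inhibitor alisertib at 500 nmol/L and the CDK4/6 inhibitor palbociclib at 1 μmol/L. The ACC inhibitor ND-646 and the FASN inhibitor TVB-3166, which block fatty acid synthesis, were each given at 250 nmol/L. The control cells are labelled as receiving no treatment, whereas the compounds were dissolved in DMSO, so an effect of a drug and one of its vehicle cannot be told apart. The labels give a refeed on day 3 for the 6 drug groups and none for the untreated day-7 cells. Whether those were also refed is not stated, so an effect of refeeding cannot be told apart either. The labels do not say that the 3 libraries of a group came from separate cultures, so p-values measure the spread between these libraries, which may be technical. All groups are the same cell line, and nothing here was compared with non-tumour cells.

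Topoisomerases relax DNA by cutting and resealing it while held to the DNA end through a tyrosine. TOP1 cuts 1 strand, and TOP2A and TOP2B pass a DNA duplex through a cut in both strands. TOP2A is made mainly in dividing cells, where it untangles replicated chromosomes before mitosis, whereas TOP2B is made in resting cells as well and acts at transcribed genes. Doxorubicin intercalates into DNA and traps the type II enzymes on it. TDP1 removes trapped TOP1 and the damaged 3′ ends that bleomycin leaves, and TDP2 removes trapped TOP2. BLMH is a cysteine aminopeptidase that inactivates bleomycin, and CBR1 reduces the carbonyl group of doxorubicin to the alcohol doxorubicinol.

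The 7 genes lie on 6 chromosomes in GRCh37, the build to which the reads were aligned. TOP1 spans chr20:39657462-39753127, TOP2B chr3:25639469-25706400, TDP1 chr14:90421283-90511108, TDP2 chr6:24650207-24667158 and CBR1 chr21:37442239-37445464. TOP2A at chr17:38544777-38574148 and BLMH at chr17:28575221-28619074 are on the same chromosome as ERBB2, the HER2 gene, which is 658097 bases from TOP2A and 9225092 bases from BLMH. The MANE transcript of CBR1 shares 381 exonic bases with CBR1-AS1 on the opposite strand, and that of TOP1 shares 204 with PLCG1-AS1. Whether strand was used in counting is not stated, so reads of these pairs may not have been told apart. CBR1 also shares 381 such bases with a long non-coding RNA on the same strand, and TOP2B shares 35 with MIR4442. Reads of these same-strand pairs cannot be told apart by strand.

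Promoters of TOP2A, TOP2B and TDP1 are shown because TOP2A and TDP1 lay closest to the proliferation markers described below and TOP2B is the paralog of TOP2A. RefSeq promoter windows on GRCh38.p14 were available for all 7 genes, and the 250 bases before each transcription start were searched on both strands for the CCAAT box, CCAAT, and the cell cycle homology region, TTTGAA. The TOP2A window held 4 CCAAT boxes and 2 TTTGAA matches. Of 35116 promoter windows, 0.874% held at least 4 CCAAT boxes and 1.72% at least 2 TTTGAA matches. TOP2B had a pair of annotated starts, of which the upstream window held 2 CCAAT boxes and 1 TTTGAA match and the other none. At least 2 CCAAT boxes were found in 9.53% of windows. TDP1 had 1 TTTGAA match, as 13.3% of windows do, and no CCAAT box, and the windows of TOP1, TDP2, BLMH and CBR1 had neither. The matches, which do not overlap, are in capitals, with ATTGG and TTCAAA being the boxes read on the opposite strand.
TOP2A, chr17:40417897-40418146, minus strand: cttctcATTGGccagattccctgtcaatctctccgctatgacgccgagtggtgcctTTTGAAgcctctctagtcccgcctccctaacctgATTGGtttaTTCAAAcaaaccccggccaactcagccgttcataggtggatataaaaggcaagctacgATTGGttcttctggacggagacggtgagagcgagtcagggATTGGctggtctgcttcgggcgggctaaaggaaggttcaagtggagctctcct
TOP2B, chr3:25664908-25665157, minus strand: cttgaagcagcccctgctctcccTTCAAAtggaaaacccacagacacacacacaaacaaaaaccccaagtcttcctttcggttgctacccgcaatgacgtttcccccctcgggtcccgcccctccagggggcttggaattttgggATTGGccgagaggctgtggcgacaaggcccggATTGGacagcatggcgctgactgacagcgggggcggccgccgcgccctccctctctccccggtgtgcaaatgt
TDP1, chr14:89955677-89955926, plus strand: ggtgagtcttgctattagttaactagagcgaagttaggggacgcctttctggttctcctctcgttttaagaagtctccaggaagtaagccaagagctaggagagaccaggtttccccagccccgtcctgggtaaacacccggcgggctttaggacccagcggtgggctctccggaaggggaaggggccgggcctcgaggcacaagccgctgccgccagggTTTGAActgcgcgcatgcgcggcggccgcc

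Total counts were 29405121 to 44316330 per library, and the 7 genes had 995 to 33341 reads in each, so the spread between libraries and not counting error set the precision. Levels are counts per 1000000 reads of a library (CPM) after TMM scaling, and changes are log2 fold-changes with their SE from edgeR's quasi-likelihood test, called at a Benjamini-Hochberg adjusted p-value under 0.05 over all genes tested. Library 1 of ND-646 had the lowest TMM factor (0.791, against 0.895 to 1.08 elsewhere), and library 1 of the day-0 cells the next lowest. All 6 luminal and HER2 markers were measured, with a summed level of 9938 to 20059 CPM per library. Of these, KRT8, KRT18 and KRT19 were called lower with both doxorubicin and bleomycin against day 0 (3 of 6). Of all genes, 24.8% and 25.3% were called lower there. Against day 7 the same 3 were called lower with bleomycin (all genes 23.2%). With doxorubicin only KRT8 was (1 of 6, all genes 21.5%). KRT19 was at 3243 CPM at day 0 and 2104 CPM in untreated day-7 cells. ERBB2 alone was at 7049 ± 460 CPM (SD, n = 3) at day 0. Of 12 markers of other cell types 9, including VIM, PTPRC and ESR1, were not in the table, which lists only genes with a read in every library, and COL1A1, ACTA2 and CD68 together reached 16.5 to 73.3 CPM. Their sum was 16.5 to 20.1 CPM at day 0, 25.8 to 29.2 in doxorubicin and 44.6 to 73.3 in bleomycin cells, and their part in the results below was not tested.

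Per kilobase of transcript, TOP2A was the most abundant of the 7 in proliferative cells. On the RPKM scale, which is the CPM divided by the transcript length in kilobases, its day-0 level was 132 ± 18.1 (SD, n = 3). TOP1 (56.3 ± 6.42), CBR1 (55.6 ± 8.34), BLMH (47.3 ± 6.71) and TDP2 (44.6 ± 2.54) followed within overlapping ranges, except that the TOP1 range lay above those of BLMH and TDP2, and the CBR1 range above that of TDP2. TOP2B at 28.2 ± 1.88 RPKM and TDP1 at 21.8 ± 0.386 RPKM were the lowest. TOP2A still ranked at the top in doxorubicin cells, at 99.5 ± 7.66 RPKM, and by its mean in bleomycin cells, at 66.7 ± 22.8 RPKM, where its range (41.4 to 85.8) overlapped those of CBR1 (55.0 to 65.3), TOP1 (43.5 to 46.1) and TDP2 (40.1 to 41.8). In TVB-3166 cells TOP2A (63.0 ± 9.39 RPKM) and CBR1 (61.3 ± 9.70 RPKM) overlapped, and in palbociclib cells TOP2A was at 47.4 ± 8.95 RPKM, below CBR1 at 65.3 ± 5.01. In ND-646 cells TOP2A was at 26.7 ± 6.20 RPKM, below CBR1, TDP2, BLMH and TOP1.

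TOP2A, which like TOP2B is a type II enzyme that doxorubicin traps, varied most of the 7 genes, with a highest group mean 5.10 times the lowest. The day-0 libraries held 657, 730 and 861 CPM, and the day-7 untreated libraries 739, 821 and 770 CPM. Doxorubicin libraries held 557, 528 and 614 CPM, and bleomycin libraries 488, 236 and 415 CPM. Every library of both drugs was thus below every untreated library, and bleomycin library 2 lay below the other two.

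TOP2A mRNA fell in doxorubicin cells by 23.8% against day 0 (log2 fold-change -0.39 ± 0.13 SE, edgeR adjusted p = 0.0255) and fell by 25.7% against day 7 (-0.43 ± 0.09, edgeR adjusted p = 0.00281). In bleomycin cells it fell by 49.2% against day 0 (-0.98 ± 0.23, edgeR adjusted p = 0.0067) and fell by 50.6% against day 7 (-1.02 ± 0.22, edgeR adjusted p = 0.00491). In cultures of whole cells, fewer cells making a transcript and less of it per cell cannot be told apart. The doxorubicin call against day 0 was lost without library 2 or 3 of day 0 or library 1 or 2 of doxorubicin (edgeR adjusted p up to 0.0907), and in a fit of all 24 libraries it was lost against day 0 (0.11) and day 7 (0.0932). The bleomycin calls held without each library in turn. Without bleomycin library 2 the log2 fold-change against day 0 was -0.73.

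The other drugs spread TOP2A further. Alisertib libraries held 717, 546 and 566 CPM, overlapping the day-0 range, and the change against day 0 did not pass (-0.30 ± 0.13, edgeR adjusted p = 0.101), though it was called without alisertib library 1 (0.0441) or day-0 library 1 (0.0236). Against day 7 it was called (-0.33 ± 0.10, edgeR adjusted p = 0.0461), a call lost without library 2 or 3 of either group (adjusted p up to 0.172) and in a fit of all 24 libraries (0.315). TVB-3166 libraries held 417, 313 and 346 CPM, and palbociclib libraries 328, 230 and 253 CPM. ND-646 libraries were the lowest, at 150, 118 and 189 CPM. Against day 0, TOP2A fell in TVB-3166 (-1.06 ± 0.14, edgeR adjusted p = 8.03e-05), palbociclib (-1.47 ± 0.15, edgeR adjusted p = 3.4e-05) and ND-646 cells (-2.31 ± 0.21, edgeR adjusted p = 9.03e-05), and the change against day 7 was called in these 3 drugs too (-1.11, -1.51 and -2.35). These 6 calls held without each library in turn. In the order of means, from day 7 (777 CPM) through day 0, alisertib and doxorubicin (567 CPM), then bleomycin (380 CPM), TVB-3166, palbociclib and ND-646 (152 CPM), the ranges of neighbours overlapped except between doxorubicin and bleomycin and between palbociclib and ND-646.

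TOP2B, the other type II enzyme, had no call in doxorubicin or bleomycin cells. Its 3 libraries held 173, 152 and 167 CPM at day 0, 163, 161 and 176 CPM with doxorubicin, and 159, 145 and 170 CPM with bleomycin, so the ranges overlapped. The log2 fold-change against day 0 was 0.04 ± 0.09 in doxorubicin (edgeR adjusted p = 0.739) and -0.05 ± 0.10 in bleomycin cells (edgeR adjusted p = 0.717). TVB-3166 was the only drug in which TOP2B was called, lower by 0.40 on the log2 scale against day 0 (SE 0.09, edgeR adjusted p = 0.00332), with libraries at 127, 125 and 120 CPM. It was also called lower there against day 7, at -0.44 ± 0.07 (edgeR adjusted p = 0.000582). ND-646 libraries were at 122, 144 and 139 CPM, at -0.28 ± 0.14 against day 0 (edgeR adjusted p = 0.14), a change that was called in a fit of all 24 libraries (0.0154). Against day 7 the same group was at -0.32 ± 0.12 (edgeR adjusted p = 0.0813) and was called without ND-646 library 1 (0.0232).

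The ratio of TOP2A to TOP2B reads per kilobase, taken within each library and so free of the scaling between libraries, was 4.69 ± 0.719 (SD, n = 3) at day 0 and 4.71 ± 0.13 in untreated cells at day 7. It was 3.49, 3.35 and 3.55 in the doxorubicin libraries and 3.14, 1.66 and 2.50 in the bleomycin libraries, all below the lowest day-0 library at 3.88. Alisertib cells, at 4.21 ± 0.306, overlapped day 0. The mean ratio was 2.95 ± 0.396 in TVB-3166, 1.60 ± 0.175 in palbociclib and 1.16 ± 0.287 in ND-646 cells, and library 2 of ND-646 was the only one with less TOP2A than TOP2B per kilobase, at 0.836. An exact permutation test of the log2 ratio against day 0, two-sided, gave p = 0.1 for doxorubicin, bleomycin, palbociclib, ND-646 and TVB-3166, the smallest p that 3 against 3 libraries allow. The exact p was 0.4 for alisertib and 1.0 for day 7, and over the 7 comparisons the adjusted values were 0.14, 0.467 and 1.0, so none could pass 0.05.

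TOP1, which cuts 1 strand, was highest at day 0. Its levels were 238, 196 and 198 CPM at day 0 and 197, 165 and 172 CPM at day 7. Doxorubicin libraries held 184, 185 and 187 CPM and bleomycin libraries 172, 162 and 168 CPM. TOP1 was called lower against day 0 in bleomycin cells (-0.32 ± 0.11, edgeR adjusted p = 0.0298), a call kept in 2 of 6 fits that left out a library and lost without bleomycin library 1, 2 or 3 or day-0 library 1 (up to 0.0917). In doxorubicin cells the change was -0.17 ± 0.10 (edgeR adjusted p = 0.168). Against day 7, TOP1 was not called in any of the 6 drugs, at -0.07 ± 0.09 in bleomycin and 0.09 ± 0.08 in doxorubicin cells. Against day 0 it was called lower in alisertib, palbociclib, ND-646 and TVB-3166 cells too, by 0.32 to 0.54 on the log2 scale, and each of these 4 calls was lost in at least 1 fit that left out a library (edgeR adjusted p up to 0.0941). The libraries were alisertib 2 or 3, palbociclib 2 or 3 or day-0 library 1, ND-646 library 3 or any day-0 library, and TVB-3166 library 3. These comparisons share the day-0 libraries, of which library 1 was the highest for TOP1 in the series.

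TDP1, the phosphodiesterase for 3′ ends, fell with both drugs, and its libraries lay close together. The day-0 libraries held 82.8, 80.1 and 80.6 CPM and the day-7 libraries 83.6, 84.3 and 85.1 CPM. They were 56.9, 59.6 and 60.1 CPM with doxorubicin and 51.5, 49.5 and 51.1 CPM with bleomycin, so neither drug overlapped the untreated groups or the other drug. TDP1 fell by 26.9% in doxorubicin cells against day 0 (-0.45 ± 0.08, edgeR adjusted p = 0.00133) and fell by 28.9% against day 7 (-0.49 ± 0.08, edgeR adjusted p = 0.000312). In bleomycin cells it fell by 37.2% against day 0 (-0.67 ± 0.09, edgeR adjusted p = 0.000337) and fell by 39.2% against day 7 (-0.72 ± 0.08, edgeR adjusted p = 0.00022). These 4 calls held without each library in turn.

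TDP1 was also called lower against both untreated groups in palbociclib, ND-646 and TVB-3166 cells. Against day 0 the log2 fold-changes were -0.79 ± 0.14 in ND-646, -0.55 ± 0.09 in TVB-3166 and -0.29 ± 0.09 in palbociclib cells, the last being lost without palbociclib library 2 or 3 (edgeR adjusted p up to 0.0686). Its libraries were at 42.3, 50.9 and 47.6 CPM in ND-646, and at 56.7, 57.6 and 51.5 CPM in TVB-3166 cells. Alisertib libraries, at 76.8, 72.7 and 68.6 CPM, gave -0.16 ± 0.08 against day 0 (edgeR adjusted p = 0.142) and -0.20 ± 0.07 against day 7 (edgeR adjusted p = 0.0713).

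TDP2, which frees DNA ends from trapped TOP2, varied least, with a highest group mean 1.23 times the lowest. Its libraries held 89.0, 80.7 and 89.4 CPM at day 0, 73.7, 74.3 and 75.5 CPM with doxorubicin, and 77.7, 81.0 and 77.8 CPM with bleomycin. The doxorubicin libraries lay below those of day 0, but the change did not pass (-0.20 ± 0.08, edgeR adjusted p = 0.0662), although it was called without a filter on low counts (0.0463) and in a fit of all 24 libraries (0.0233). Against day 7, whose libraries held 74.2 to 78.2 CPM, it was -0.01 ± 0.07 (edgeR adjusted p = 0.905). In bleomycin cells it was -0.13 ± 0.09 against day 0 (edgeR adjusted p = 0.291). The 1 call of TDP2 was in alisertib cells against day 0, at -0.31 ± 0.09 (edgeR adjusted p = 0.0251), which was lost without day-0 library 3 or alisertib library 1 or 3 (up to 0.117).

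BLMH, the bleomycin hydrolase, had its lowest mean levels in doxorubicin (78.3 ± 10.1 CPM, SD, n = 3) and bleomycin cells (79.3 ± 8.44 CPM), followed by TVB-3166 cells (80.0 ± 1.92 CPM), and these 3 groups overlapped. Its libraries held 91.3, 119 and 117 CPM at day 0, and 109, 105 and 111 CPM at day 7. With doxorubicin they held 71.0, 89.8 and 74.2 CPM and with bleomycin 82.6, 69.8 and 85.7 CPM. Each library of both drugs was below every untreated library, although the doxorubicin library at 89.8 CPM was near the lowest of day 0.

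BLMH fell by 27.7% in doxorubicin cells against day 0 (-0.47 ± 0.13, edgeR adjusted p = 0.0132) and fell by 26.5% against day 7 (-0.45 ± 0.10, edgeR adjusted p = 0.00279). In bleomycin cells it fell by 27.0% against day 0 (-0.45 ± 0.13, edgeR adjusted p = 0.0175) and fell by 26.2% against day 7 (-0.44 ± 0.10, edgeR adjusted p = 0.00537). Both calls against day 7 held without each library in turn. Against day 0 the doxorubicin call was lost without day-0 library 2 or doxorubicin library 1 or 3, and the bleomycin call without bleomycin library 2 or day-0 library 2 or 3 (edgeR adjusted p up to 0.0773). BLMH was called lower against both untreated groups in TVB-3166 and alisertib cells as well, at -0.44 ± 0.11 and -0.35 ± 0.11 against day 0, the latter lost without any alisertib library or day-0 library 2 or 3 (edgeR adjusted p up to 0.108). In palbociclib cells it was called against day 7 (-0.21 ± 0.07, edgeR adjusted p = 0.0391), a call lost without library 1 or 3 of either group (up to 0.146). ND-646 libraries held 116, 87.3 and 82.4 CPM, and the change against day 0 of -0.20 ± 0.18 (edgeR adjusted p = 0.397) was -0.36 and called (0.0411) without ND-646 library 1.

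CBR1, which makes doxorubicinol, had no call in doxorubicin or bleomycin cells against either untreated group. Its libraries held 57.0, 77.1 and 67.3 CPM at day 0, 79.7, 81.5 and 74.4 CPM at day 7, 72.5, 75.7 and 68.8 CPM with doxorubicin, and 68.6, 78.8 and 66.4 CPM with bleomycin, and these ranges overlapped. In doxorubicin cells the log2 fold-change was 0.12 ± 0.12 against day 0 (edgeR adjusted p = 0.412) and -0.09 ± 0.08 against day 7 (edgeR adjusted p = 0.375). In bleomycin cells it was 0.09 ± 0.13 and -0.12 ± 0.10 (edgeR adjusted p = 0.592 and 0.323). CBR1 was the only gene of the 7 called higher in any drug, at 0.32 ± 0.11 in alisertib cells against day 0 (edgeR adjusted p = 0.0443), a call lost without any alisertib library or day-0 library 1 or 3 (up to 0.138). Against day 7 the same group was at 0.11 ± 0.07 (edgeR adjusted p = 0.293). The highest mean, 88.7 ± 18.1 CPM in ND-646 cells, rested on library 1 at 110 CPM, the library with the lowest TMM factor, with the others at 77.7 and 78.8 CPM.

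The number of the 7 genes called can be read beside the share of all genes called in the same comparison. Against day 0, 3 of 7 were called with doxorubicin, where 48.4% of 13804 genes tested were called, and 4 of 7 with bleomycin, where 49.4% were. The median log2 fold-change of the 7 was -0.20 and -0.32, beside 0.0089 and 0.00036 over all genes. With alisertib 4 of 7 were called (all genes 37.3%), with palbociclib 3 (53.2%), with ND-646 3 (37.9%) and with TVB-3166 5 (55.1%).

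Against day 7, 3 of 7 were called with doxorubicin (all genes 43.4%) and 3 with bleomycin (45.6%), in both cases TOP2A, TDP1 and BLMH. There were 2 calls with alisertib (19.0%), 3 with palbociclib (44.8%), 2 with ND-646 (34.2%) and 4 with TVB-3166 (51.5%). For alisertib, where same-numbered libraries deviated together, a fit with the replicate number as a block called 3 members, adding TDP1 (edgeR adjusted p = 0.0428), and 4141 genes in place of 2627. Between untreated cells at day 7 and day 0, edgeR called 0 of 7 (all genes 0.587%), 0 of 7 had an unadjusted p under 0.05 and DESeq2 called 0. The largest of these differences were 0.24 ± 0.12 for CBR1 and -0.23 ± 0.11 for TOP1 on the log2 scale.

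**Figure D1:**
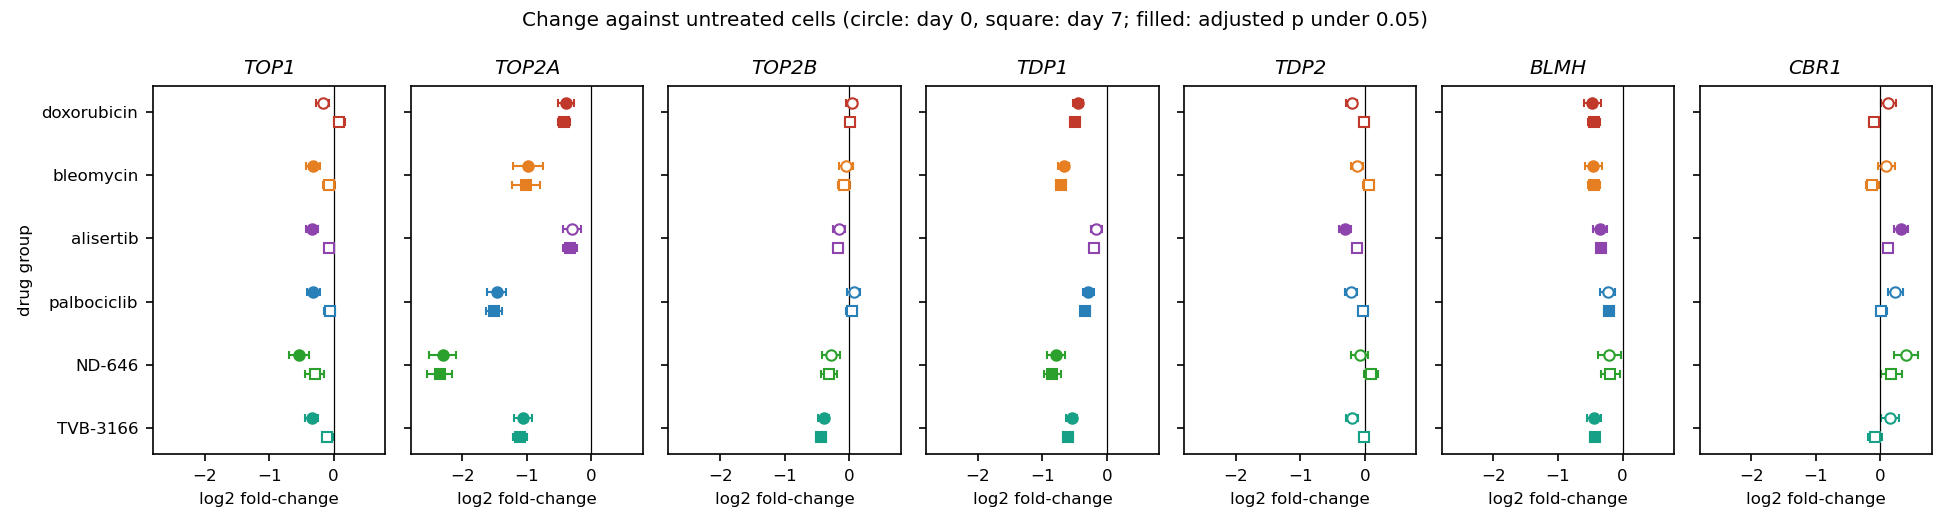
Log2 fold-change of the 7 genes in each drug group against untreated cells of day 0 (circles) and day 7 (squares), with bars for 1 SE from edgeR and filled symbols where the adjusted p was under 0.05. TOP2A, TDP1 and BLMH are filled on both lines for doxorubicin and bleomycin, TOP1 moves toward 0 against day 7, and CBR1 lies near 0 in both drugs.

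The 2 drugs singled out here were also compared directly, doxorubicin minus bleomycin, where 12.1% of all genes were called. None of the 7 passed by edgeR, although 2 had an unadjusted p under 0.05 and DESeq2 called 1. These were TOP2A, 0.58 higher on the log2 scale with doxorubicin (95% interval 0.10 to 1.06, edgeR adjusted p = 0.105), and TDP1, 0.21 higher (0.03 to 0.40, edgeR adjusted p = 0.112). The TOP2A difference was called by DESeq2 (adjusted p = 0.0398) and by edgeR without bleomycin library 1 (0.0301). For BLMH the difference was -0.02 (-0.28 to 0.25), for CBR1 0.02 (-0.20 to 0.24), for TOP2B 0.08 (-0.12 to 0.28), for TDP2 -0.08 (-0.26 to 0.09) and for TOP1 0.15 (-0.03 to 0.32). Taken singly, these 95% intervals reached at most 0.32 on the log2 scale in either direction. They were not adjusted for the number of genes, and equality was not tested. The doses differed (10 nmol/L and 10 μmol/L) and were not matched for effect.

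Each drug was then set against the mean of the other 5 in a fit of all 24 libraries. TOP2A was higher with doxorubicin than the mean of the other 5 drugs by 0.82 on the log2 scale (95% interval 0.51 to 1.13, edgeR adjusted p = 0.000561). This was the 1 call of 7, with 23.8% of all genes called, and it held without each of the 18 drug libraries in turn. The alisertib mean, 610 CPM, was above the doxorubicin mean, 567 CPM, and the ranges of these groups overlapped. TOP1 and TOP2B were each 0.19 higher (edgeR adjusted p = 0.0575 and 0.0531) and passed under some alternatives. BLMH at -0.14 (-0.34 to 0.06) and CBR1 at -0.13 (-0.34 to 0.08) did not pass.

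With bleomycin, TDP1 was lower than the mean of the other 5 drugs by 0.23 on the log2 scale (-0.36 to -0.10, edgeR adjusted p = 0.00939). This was the 1 call of 7, where 28.8% of all genes were called. It held in 17 of 18 fits that left out a drug library and was lost without bleomycin library 2 (edgeR adjusted p = 0.0615). The ND-646 mean was lower than that of bleomycin (46.9 against 50.7 CPM). TVB-3166 libraries (51.49 to 57.57 CPM) overlapped those of bleomycin (49.55 to 51.55 CPM). BLMH, at -0.12 (-0.32 to 0.08), did not pass in bleomycin cells.

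**Figure D2:**
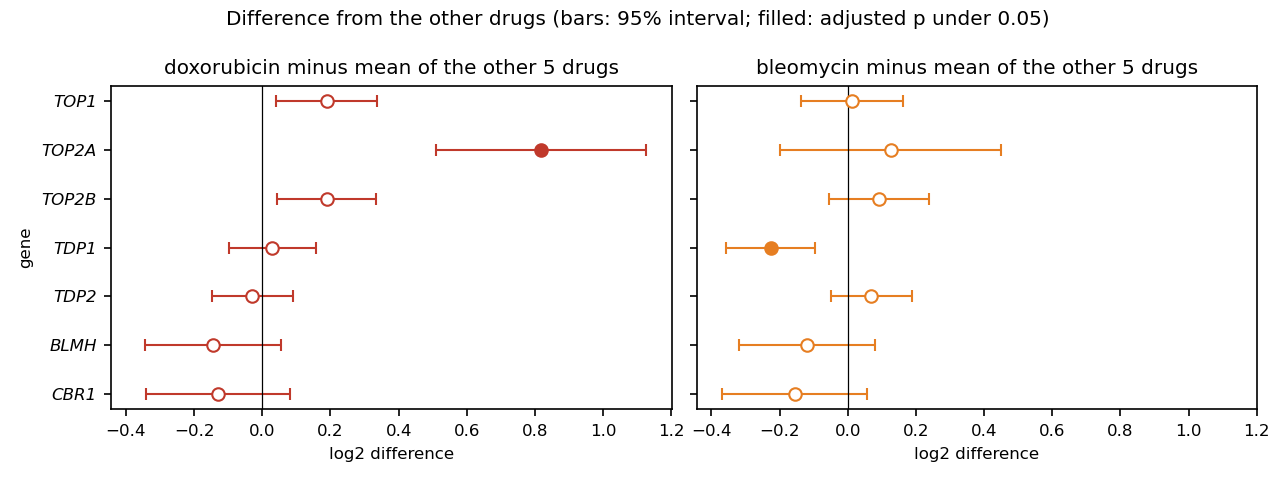
Log2 difference of doxorubicin (left) and bleomycin (right) from the mean of the other 5 drugs for each gene, with 95% intervals from edgeR and filled symbols where the adjusted p was under 0.05. TOP2A at 0.82 with doxorubicin and TDP1 at -0.23 with bleomycin are the filled points.

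Proliferation markers, 10 genes used in dividing cells such as MKI67, PLK1, CCNA2 and BIRC5, moved with TOP2A across the drug groups. Their summed level was 1452 to 1795 CPM at day 0, 1155 to 1386 at day 7, 799 to 854 in doxorubicin and 259 to 614 in bleomycin libraries. All 10 were called lower against day 0 in both drugs, with a median log2 fold-change of -0.90 and -1.83. Against day 7, 9 were called lower with doxorubicin, all but MKI67, and 10 with bleomycin (median -0.63 and -1.54). PLK1, a mitotic kinase, was at 140 ± 4.48 CPM (SD, n = 3) at day 0, 106 ± 12.0 in untreated day-7 cells, 54.9 ± 3.93 with doxorubicin and 28.6 ± 8.97 with bleomycin. Against day 0, TOP2A was less reduced than all 10 in doxorubicin, bleomycin and TVB-3166 cells. It was less reduced than 9 in alisertib and ND-646 cells and than 7 in palbociclib cells. Between untreated cells at day 7 and day 0, TOP2A was at 0.06 and the marker median at -0.28. All 10 markers were below TOP2A there, and 0 were called. Against day 7 with doxorubicin, MKI67 (-0.32) and BUB1 (-0.37) were less reduced than TOP2A (-0.43), and the remaining markers were more reduced. These differences were not tested. All 10 markers were also called higher with doxorubicin than the mean of the other 5 drugs, with a median of 0.76 beside the 0.82 of TOP2A. The part of the markers in the TOP2A values was not tested.

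Across the 24 libraries the log2 CPM of TOP2A had a Pearson r of 0.922 to 0.966 with the 10 markers. For TDP1 r was 0.758 to 0.884, for TOP1 0.618 to 0.837, for TOP2B 0.368 to 0.580, for BLMH 0.198 to 0.493, for TDP2 -0.198 to 0.0067 and for CBR1 -0.479 to -0.146. These values describe 8 groups of libraries that share treatments and scaling. TDP1 and the marker sum were ordered oppositely, with no overlap in either, in 2 of 28 pairs of groups. In the first, palbociclib libraries had more TDP1 (63.4 to 71.2 CPM) than doxorubicin libraries (56.9 to 60.1 CPM) at a lower marker sum (376 to 540 against 799 to 854 CPM). In the other, untreated day-7 libraries had more TDP1 (83.6 to 85.1 CPM) than day-0 libraries (80.1 to 82.8 CPM) at a lower marker sum (1155 to 1386 against 1452 to 1795 CPM).

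**Figure D3:**
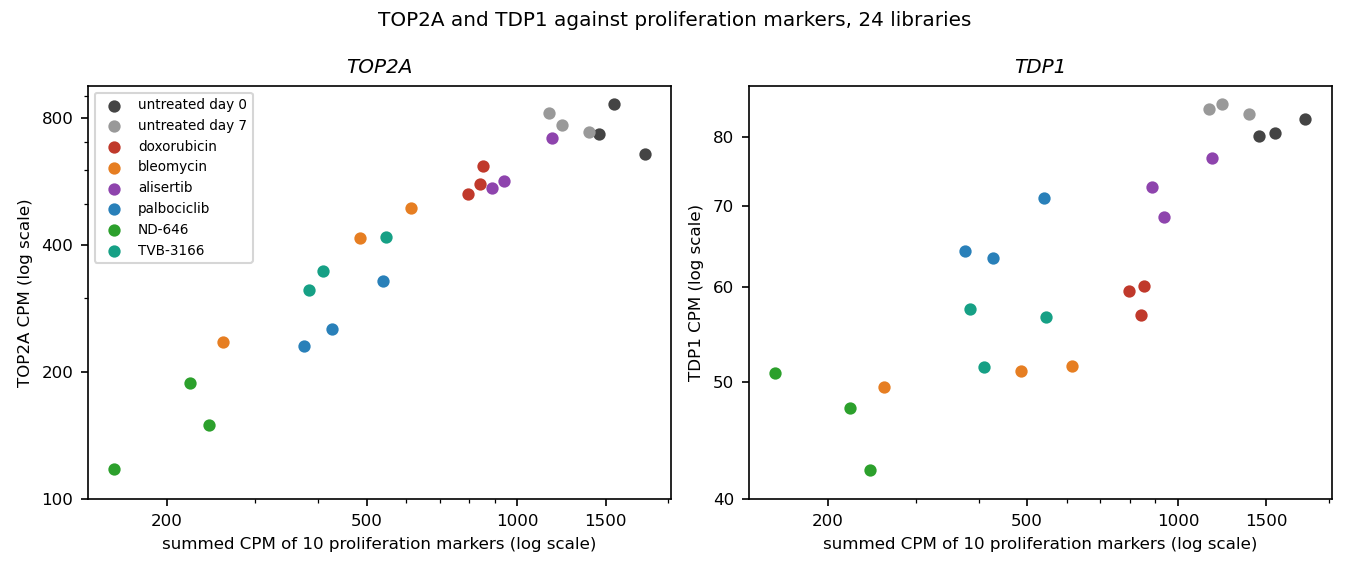
CPM of TOP2A (left) and TDP1 (right) against the summed CPM of 10 proliferation markers in the 24 libraries, all axes on log scales. TOP2A rises along the marker sum from 118 to 861 CPM, while the doxorubicin libraries lie below the palbociclib libraries for TDP1 at a higher marker sum.

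The genes whose log2 CPM was most like that of each of the 7 over the 24 libraries, among 14076 genes, were found by Pearson r. For TOP2A these were NEK2 (0.980), a centrosomal kinase, SKA1 (0.973), a spindle and kinetochore protein, and FAM72D (0.969). For TDP1 they were MRS2 (0.959), PDSS1 (0.953) and HLF (0.953), and for BLMH the G1 kinase CDK4 (0.925), TOMM22 (0.906) and PPIA (0.882). ZNF480, MORC2 and BCLAF1 were closest to TOP1 (0.906 to 0.924) and P2RX5, LPCAT2 and SMARCC1 to TOP2B (0.885 to 0.902). The nearest for TDP2 were TSN, MBD2 and MTMR2 (0.795 to 0.847), and for CBR1 RABAC1, DIPK1B and ZNF580 (0.745 to 0.769). The median r over all genes was between -0.021 and 0.003.

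Of all genes tested, 24.8% were called lower and 23.7% higher with doxorubicin against day 0, and 25.3% lower and 24.1% higher with bleomycin. In the same order these shares were 19.6% and 17.7% with alisertib and 27.2% and 26.0% with palbociclib. They were 18.8% and 19.1% with ND-646 and 27.7% and 27.4% with TVB-3166. Against untreated day-7 cells the shares were 21.5% lower and 21.9% higher with doxorubicin and 23.2% lower and 22.4% higher with bleomycin. The genes named from the lists were picked by their tests against day 0, and the comparison of the lists with day 7 was added after the day-0 values were seen. The untreated cells are shared between the drugs.

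Of 7 other topoisomerases and partners of TOP3, 4 were called lower and 1 higher in doxorubicin cells and 5 lower and 0 higher in bleomycin cells against day 0 (median log2 fold-change -0.50 and -0.65). Against day 7, 3 were called lower with doxorubicin and 5 with bleomycin, and 0 higher (median -0.28 and -0.36). With alisertib 4 were called lower and 1 higher against day 0, and with palbociclib 5 and 1. With ND-646 these counts were 4 and 0, and with TVB-3166 5 and 1. BLM, the helicase that works with TOP3A, was at 29.4 ± 1.58 CPM (SD, n = 3) at day 0 and 25.5 ± 2.81 in untreated day-7 cells. It was at 20.6 ± 1.48 CPM with doxorubicin, which was called lower against day 0 (edgeR adjusted p = 0.00294) and not against day 7 (edgeR adjusted p = 0.0519). With bleomycin it was at 10.2 ± 3.96 CPM, called lower against both (edgeR adjusted p = 0.00112 and 0.00357). The BLM mean was 4.15 CPM with ND-646, 7.30 with TVB-3166, 10.3 with palbociclib and 21.6 with alisertib. Its partner RMI2 fell by 0.72 on the log2 scale with doxorubicin against either untreated group, and RMI1 fell by 1.04 with bleomycin against day 0 and fell by 1.02 against day 7. The mitochondrial enzyme TOP1MT fell by 0.56 with doxorubicin against day 0 and fell by 0.52 against day 7. TOP3A with bleomycin fell by 0.65 against day 0 and fell by 0.36 against day 7. TOP3B was the gene called higher with doxorubicin against day 0, at 0.60 ± 0.19, and is named after its value was seen. Against day 7 its difference was 0.32 ± 0.18 and was not called (edgeR adjusted p = 0.173).

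Of 14 measured genes for repair of trapped topoisomerases and single-strand breaks, 8 were called lower and 2 higher with doxorubicin, and 9 lower and 2 higher with bleomycin, against day 0 (median -0.32 and -0.40). Against day 7 the counts were 7 lower and 2 higher with doxorubicin and 9 lower and 2 higher with bleomycin (median -0.23 and -0.42). With alisertib 5 were called lower and 2 higher against day 0, and with palbociclib 6 and 2. With ND-646 these counts were 7 and 0, and with TVB-3166 8 and 1. PARP1, which senses strand breaks and recruits TDP1, was at 412 ± 22.3 CPM at day 0 and 413 ± 13.5 in untreated day-7 cells. It fell to 270 ± 12.5 CPM with doxorubicin (edgeR adjusted p = 0.000643 against day 0 and 0.000158 against day 7) and to 208 ± 14.9 with bleomycin (edgeR adjusted p = 0.000118 and 8.59e-05). The PARP1 mean was 199 CPM with ND-646, 232 with palbociclib, 242 with TVB-3166 and 308 with alisertib. The scaffold XRCC1 was at 37.8 ± 1.63 CPM at day 0 and 28.0 ± 0.646 in untreated day-7 cells, against 24.3 ± 1.37 with doxorubicin and 22.3 ± 1.77 with bleomycin. Against day 0 it fell by 0.62 and fell by 0.75 on the log2 scale. Against day 7 its doxorubicin difference of -0.18 was not called (edgeR adjusted p = 0.139), and with bleomycin it fell by 0.31 (edgeR adjusted p = 0.0373). RBBP8 with doxorubicin fell by 0.54 against day 0 and fell by 0.49 against day 7, and PARP2 with bleomycin fell by 1.16 and fell by 1.05.

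Of 10 genes of non-homologous end joining, which joins the ends that TDP2 frees, 3 were called lower and 1 higher with doxorubicin and 4 lower and 2 higher with bleomycin, and these counts were equal against day 0 and day 7. The medians were -0.09 and -0.22 against day 0 and -0.05 and -0.07 against day 7. Against day 0, 5 were called lower with each other drug. Called higher were 3 with alisertib, 2 with palbociclib, 1 with ND-646 and 2 with TVB-3166. PAXX fell by 0.98 with doxorubicin and fell by 1.49 with bleomycin against day 0, and fell by 0.88 and fell by 1.38 against day 7. Of the Ku subunits, XRCC6 fell by 0.57 with doxorubicin and fell by 0.66 with bleomycin against day 0, and fell by 0.28 and fell by 0.37 against day 7. XRCC5 fell by 0.55 and fell by 0.60 against day 0, and fell by 0.26 and fell by 0.32 against day 7.

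Of 12 other carbonyl and quinone reductases, set beside CBR1, 9 were in the table, and AKR1C1, AKR1C2 and AKR1C3 were not. With each drug 4 were called higher and 1 lower against day 0 (median 0.42 with doxorubicin and 0.52 with bleomycin). Against day 7, 4 were called higher and 1 lower with doxorubicin, and 2 higher and 1 lower with bleomycin (median 0.07 and 0.15). With alisertib 5 were called higher and 1 lower against day 0, and with palbociclib 5 and 4. With ND-646 these counts were 4 and 0, and with TVB-3166 4 and 1. AKR1B10, an aldo-keto reductase, was at 0.670 ± 0.257 CPM (SD, n = 3) at day 0 and 1.74 ± 0.704 in untreated day-7 cells. It rose to 7.14 ± 1.75 CPM with doxorubicin, a change of 3.40 ± 0.30 on the log2 scale against day 0 (edgeR adjusted p = 3.47e-05) and of 2.07 ± 0.28 against day 7 (edgeR adjusted p = 0.00012). With bleomycin it rose to 5.94 ± 1.34 CPM, by 3.13 ± 0.32 against day 0 (edgeR adjusted p = 9.06e-05) and 1.80 ± 0.31 against day 7 (edgeR adjusted p = 0.00164). The quinone reductase NQO1 was at 421 ± 91.1 CPM at day 0, 541 ± 161 in untreated day-7 cells and 767 ± 151 with doxorubicin (edgeR adjusted p = 0.00255 against day 0 and 0.0349 against day 7). Its mean was higher still with palbociclib (950 CPM), TVB-3166 (1025 CPM) and ND-646 (1271 CPM), and lower with bleomycin (699 CPM) and alisertib (655 CPM). AKR1A1 was at 174 ± 23.0 CPM at day 0, 250 ± 43.0 in untreated day-7 cells and 309 ± 29.7 with bleomycin, which was called higher against day 0 (edgeR adjusted p = 0.000678) and not against day 7 (edgeR adjusted p = 0.0680). The AKR1A1 mean was higher with ND-646 (548 CPM), TVB-3166 (526 CPM) and alisertib (346 CPM), and lower with palbociclib (285 CPM) and doxorubicin (258 CPM). AKR7A2 with doxorubicin fell by 0.91 against day 0 and fell by 0.77 against day 7, and with bleomycin fell by 0.65 and fell by 0.51 on the log2 scale.

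Among 10 other cytosolic aminopeptidases, set beside BLMH, 8 were called lower with doxorubicin and 6 with bleomycin, and 0 higher with either drug, against day 0 (median -0.35 and -0.40). Against day 7, 5 were called lower with doxorubicin and 6 with bleomycin, and 0 higher (median -0.22 and -0.31). Against day 0, 7 were called lower with alisertib, 6 with palbociclib, 6 with ND-646 and 8 with TVB-3166, and 0 higher. RNPEP fell by 0.70 with doxorubicin and fell by 0.62 with bleomycin against day 0, and fell by 0.43 and fell by 0.35 on the log2 scale against day 7. DPP3 was at 84.4 ± 7.76 CPM at day 0 and was already lower in untreated day-7 cells, at 55.3 ± 3.72 (edgeR adjusted p = 0.0454), close to the 52.5 ± 1.47 CPM of doxorubicin cells. Its doxorubicin difference was thus -0.67 against day 0 and -0.05 against day 7 (edgeR adjusted p = 0.673), and with bleomycin it fell by 1.39 and fell by 0.77. NPEPPS, the puromycin-sensitive aminopeptidase, was at 155 ± 8.67 CPM at day 0 and 152 ± 15.6 in untreated day-7 cells. It fell to 118 ± 5.08 CPM with doxorubicin (edgeR adjusted p = 0.00492 against day 0 and 0.00805 against day 7) and to 74.3 ± 7.90 with bleomycin (edgeR adjusted p = 9.46e-05 and 0.000201).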

How the data were processed

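The authors sequenced RNA of SKBR3 cells (stranded kit, 2 × 150 bases), ran HISAT2 against GRCh37 and StringTie for transcripts, and deposited a table of raw read counts per gene for 24 libraries. How reads were counted, and whether strand was used, is not given in the sources used here. The deposited counts were not normalized, and the table holds only genes with at least 1 read in every library, so genes silent in any library are missing from the background.

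The members and lists were chosen with earlier results of these data known. The test was that of edgeR 4.0.16 under R 4.3.3 (filterByExpr, TMM, glmQLFit and glmQLFTest, two-sided) on the pair of groups compared, or on all 24 libraries for the contrasts with the other 5 drugs, with Benjamini-Hochberg adjustment over all genes tested and calls under 0.05. Intervals use the t distribution of the fit. Log2 CPM used a prior count of 2. RPKM used the length of the MANE transcript. The named genes were the 7 members, the 3 most correlated with each, and up to 3 genes per list with the lowest adjusted p against day 0 in doxorubicin and bleomycin cells, with any proliferation marker. Gene positions are from GENCODE v44 on GRCh37, and promoters from RefSeq on GRCh38.p14. The ratio of TOP2A to TOP2B was tested by exact permutation (SciPy 1.17.1).

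Libraries of a group differed by more than sampling noise (chi-square per degree of freedom 13.7 to 177), so none was counted as a duplicate. The same-numbered libraries deviated together, with 3 of 3 correlations above 0.1, only for bleomycin (0.104 to 0.141) and alisertib (0.101 to 0.217) against day 7. The alternatives were DESeq2 1.42.0, a minimum of 10 counts per library or no filter, RLE size factors, all 24 (or 18 drug) libraries in a fit, the authors' rule of a fold of at least 2 with raw p under 0.05, the replicate block, and leaving out each library. The tests were checked on simulated data.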

Additional observations from a re-analysis of the deposited data

Results flagged for a closer look

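The effect of a drug differed from the mean of the other 5 drugs, by the test of that difference in a fit of all 24 libraries, for 2 of the 7 genes. TOP2A was 0.82 higher on the log2 scale with doxorubicin (edgeR adjusted p = 0.000561). The 3 doxorubicin libraries held 528 to 614 CPM and those of the other 5 drugs 118 to 717 CPM. Only alisertib libraries reached into the doxorubicin range or above it, and the alisertib mean (610 CPM) was above that of doxorubicin (567 CPM). TDP1 was lower with bleomycin, at -0.23 on the log2 scale (edgeR adjusted p = 0.00939), with libraries at 49.5 to 51.5 CPM. Only ND-646 was lower on average (46.9 CPM), and the range of TVB-3166 overlapped that of bleomycin. The 10 proliferation markers were also higher with doxorubicin than the mean of the other 5 drugs, by a median of 0.76. Their part in the TOP2A difference was not tested. With 3 libraries in each group, single libraries were not tested as outliers.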

How the results depend on the processing

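Counts of called members within 1.5 times the value reported were obtained in 87 of 112 results under another setting and in 98 of 120 with 1 library left out. Under the authors' rule of a 2-fold change with raw p under 0.05, 1 member (TOP2A) was called with palbociclib, ND-646 and TVB-3166 against both untreated groups and with bleomycin against day 7, and 0 in the other drug comparisons that had calls. In a fit of all 24 libraries, ND-646 had 5 calls against day 0 and 4 against day 7, and alisertib 0 against day 7. Without a filter alisertib had 1 against day 7. For doxorubicin against bleomycin, DESeq2 and the replicate block each called 1. For doxorubicin against the other 5 drugs, DESeq2, the replicate block and at least 10 counts each called 3, and no filter or the 18 drug libraries 2. The cause was not tested. Shares of all genes called under these settings, or with 1 library left out, are mostly not listed here. These counts of members are therefore not read against them.

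With 1 library left out, calls against day 0 ranged from 1 to 3 with doxorubicin, 2 to 3 with bleomycin, 0 to 4 with alisertib, 1 to 4 with palbociclib, 2 to 4 with ND-646 and 4 to 5 with TVB-3166. Against day 7 they ranged from 1 to 2 with alisertib, 2 to 3 with palbociclib and 2 to 4 with ND-646, and stayed at 3 with doxorubicin and bleomycin and 4 with TVB-3166. They were 0 to 1 for doxorubicin against bleomycin, 1 to 3 for doxorubicin and 0 to 1 for bleomycin against the other 5 drugs. The difference from day 0 in the mean log2 ratio of TOP2A to TOP2B moved between -0.56 and -0.34 for doxorubicin. For day 7 this difference moved between -0.11 and 0.11, and it changed sign without day-7 library 3 (-0.0040) or day-0 library 1 (-0.11). For alisertib it lay between -0.28 and -0.058. Libraries with the same number are not said to share a culture or day, and outside alisertib against day 7 the block is given only here. For bleomycin against day 7 it called the same 3 members (TOP2A, TDP1 and BLMH). It moved the calls over all genes between untreated groups from 80 to 1263. Medians of all genes shifted little with RLE scaling.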
